A study of Mus musculus with 24 samples.

Results

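Histone genes fall into replication-dependent genes, whose mouse symbols begin with Hist, and variant genes, which are transcribed through the whole cell cycle. Members were chosen by symbol in the RNAseq tables of ESCs, embryonic stem cells, and NPCs, which the labels name neural progenitor cells. A symbol that begins with Hist1h to Hist4h made a gene a Hist gene, and one that begins with H2af, H1f or H3f made it a variant gene. The rule found 82 of 21909 symbols, of which 67 were Hist genes and 15 were variant genes. No measured value entered the rule.

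Most messenger RNAs end in a poly(A) tail, but messages of replication-dependent histone genes usually end just after a short stem-loop, to which the protein Slbp binds. They are made in S phase, when new DNA has to be packed, and are degraded when replication stops. Variant histones are put into chromatin at other times, their messages carry poly(A) tails, and some replication-dependent genes are also known to give polyadenylated messages in cells that differentiate.

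The study mapped the DNA regions that lie near the nucleolus, called nucleolus-associated domains (NADs), in mouse E14 ESCs and in NPCs made from them, and measured polyadenylated RNA in 3 independent dishes of each cell type. ESCs were kept in medium with 1000 U/ml LIF, 3 µM CHIR99021 and 1 µM PD0325901. NPCs were taken on day 8 of differentiation as embryoid bodies, with 2 µM retinoic acid for the last 4 days. NADs came from cells that expressed the fusion H2B-Dam-NoLS, set against H2B-Dam, with 2 replicates of each fusion per cell type, switched on for 15 h with doxycycline at 100 ng/ml and Shield1 at 1 µM. No named batch crosses the cell types, so culture, library and cell type cannot be told apart.

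RNA levels are in RPKM, reads per kilobase in every 1000000 reads, as the authors deposited them. The steps between low values gave back whole reads and the depth of each sample. Depth was 34051992, 33732018 and 30779728 reads in ESC replicates 1 to 3 and 30151252, 27262786 and 32297555 reads in NPC replicates 1 to 3. The kilobases in the deposited values are those of the whole gene with its introns. With that length, 6732 of 7132 spliced genes (94.4%) gave whole reads within 0.05 reads in every sample, and with exonic length 13 of 12419 did (0.105%). Most Hist genes have no intron, so spliced variant genes are understated beside them. Levels of different genes are therefore compared per exonic kilobase, and each gene is compared between cell types on the deposited scale. Values per exonic kilobase take all recovered reads as exonic. The paper describes the counting as exon coverage, and whether reads in introns were counted was not tested.

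ESC replicate 3 stands apart from the other ESC libraries by gene length. Its median log2 RPKM lay 0.61 above theirs in the shortest of 4 bins of genes, with 255 to 2580 exonic bases, and at -0.47 relative to theirs in the longest bin. NPC libraries stayed between -0.02 and 0.02 in the shortest bin. Its log2 values correlated with those of ESC replicates 1 and 2 at 0.963 and 0.966 across genes, while those of replicates 1 and 2 correlated at 0.999. Of the 82 members, 75 have at most 2580 exonic bases, so results are given with and without this library, and also after each sample was centred within bins of exonic length.

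**Figure D1:**
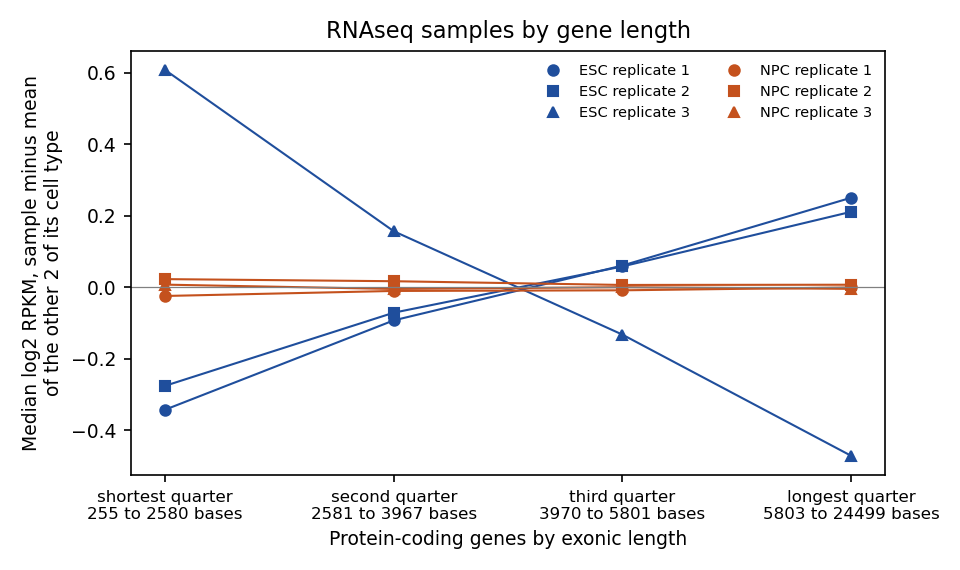
Median log2 RPKM of each RNAseq sample minus the mean of the other replicates of its cell type, for protein-coding genes in 4 bins of exonic length (lines join the 4 bins of a sample). ESC replicate 3 runs from 0.61 in the shortest bin to -0.47 in the longest, and the NPC samples stay close to 0.

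Marker genes were read beside the labels. All 7 ESC markers fell in NPCs, all but Sox2 and Klf4 having passed the filter through the ESC samples alone, with summed levels of 505, 506 and 528 RPKM in ESCs and 8.98, 10.6 and 12.1 RPKM in NPCs. Of 6 neural progenitor markers that passed the filter, 5 rose and Vim was not called. Pax6, Sox1 and Hes5 passed the filter through the NPC samples alone, and Fabp7, which did not pass, had means of 0.00277 RPKM in ESCs and 1.11 RPKM in NPCs. Fabp7 was called higher over all detected genes after centring by length (limma adjusted p = 1.37e-04). The sums of all 7 listed were 41.6, 43.2 and 51.1 RPKM in ESCs and 85.9, 91.4 and 93.8 RPKM in NPCs. Nes rose from 3.46 to 30.6 RPKM and Pax6 from 0.0115 to 1.55 RPKM. The NPC libraries also held RNA of other lineages. The 4 mesoderm markers that passed the filter, of 6 listed, rose, as did the 4 endoderm markers that passed it, of 5 listed. All of these also passed the filter through the NPC samples alone. Of the mesoderm markers that did not pass the filter, T was at 0.959 RPKM in ESCs and 0.0123 RPKM in NPCs, and Tbx6 at 0.144 and 0.762 RPKM. Over all detected genes, centred by length, T was called lower (limma adjusted p = 1.28e-04) and Tbx6 higher (limma adjusted p = 2.49e-05). Mesoderm markers summed to 1.46, 1.5 and 1.19 RPKM in ESCs and 55.9, 59.4 and 54.5 RPKM in NPCs. Foxf1 and Twist1 made up most of the NPC sums, and Foxf1 was listed at 0 in ESCs. Endoderm markers summed to 0.0977, 0.115 and 0.0834 RPKM in ESCs and 14.6, 16.0 and 15.5 RPKM in NPCs, most of it from Gata6 and Gata4, with Afp listed at 0 in ESCs and at 0.0218 RPKM in NPCs. Neuron markers were mixed. Tubb3 and Stmn2 fell, the former without a call after centring by length (limma adjusted p = 0.0976). Stmn2 passed the filter through the ESC samples alone. Another 4 that did not pass the filter had higher means in NPCs: Dcx at 0 and 0.916 RPKM, Elavl3 at 0.025 and 0.826, Map2 at 0.0133 and 0.147, and Rbfox3 at 1.42e-04 and 0.0172. These 4 were called higher over all detected genes after centring by length (limma adjusted p from 6.16e-06 to 1.18e-04). The sums of all 6 were 11.1, 12.2 and 14.5 RPKM in ESCs and 6.88, 5.55 and 6.64 RPKM in NPCs. The germ cell list summed to 3.47, 3.04 and 3.45 RPKM in ESCs, mostly Dazl, and to 0.135, 0.217 and 0.394 RPKM in NPCs, with Tnp1 listed at 0 in every sample. What share of the histone differences comes from cells other than neural progenitors was not tested. In bulk samples, fewer cells of a type and less RNA per cell cannot be told apart.

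Variant genes held nearly all histone reads in this polyadenylated RNA. The 67 Hist genes together had 5814 reads over the 6 samples and the 15 variant genes had 405039. Hist genes made up 1.29%, 1.22% and 1.32% of histone reads in ESCs and 1.66%, 1.54% and 1.44% in NPCs. Every NPC sample lay above every ESC sample in this share, which rests on Hist3h2ba. Without that gene the shares overlapped, at 1.29%, 1.22% and 1.31% in ESCs and 1.37%, 1.30% and 1.22% in NPCs. The same Hist reads came to 22.9, 22.5 and 35.0 per 1000000 reads in ESCs and 38.7, 35.3 and 33.0 per 1000000 reads in NPCs, and here ESC replicate 3 lay among the NPC samples.

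Single Hist genes were low. Of the 67, 12 were listed at 0 in all samples, 55 had at least 1 read, and 11 reached a mean of 1 RPKM in either cell type. The median Hist gene had a mean of 0.166 RPKM over all 6 samples. Per exonic kilobase Hist1h2bc was highest in ESCs, at 7.26, and Hist3h2ba in NPCs, at 9.47. Of the variant genes, 3 were listed at 0 and 10 reached 1 RPKM. Their median was 6.73 RPKM over all 6 samples.

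The comparison of NPCs with ESCs asks which histone genes differ between a pluripotent and a differentiated state. Changes are on the log2(RPKM + 1) scale, which understates the change of low genes, and a gene was called at an adjusted p under 0.05 in a limma fit over all genes tested. Among genes with at least 1 RPKM in at least 3 samples, 36.9% were called higher in NPCs and 33.3% lower. Of the Hist genes, 7 passed this filter: 4 rose, 2 fell and 1 was not called. Of the variant genes, 10 passed: 5 rose, 3 fell and 2 were not called. A gene can pass this filter through its higher group alone, so a fit over all 18360 detected genes stands beside it. Hist3h2ba, Hist3h2a, Hist2h2be and H2afy2 passed through the NPC samples alone, and Hist1h1a and Hist1h2bk through the ESC samples alone. Over all detected genes their limma adjusted p values were 1.28e-05, 5.91e-04, 7.56e-05, 8.34e-06, 0.0016 and 0.0586 in this order, so the call of Hist1h2bk was lost.

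In the fit over all detected genes, 39.5% of genes were called higher in NPCs and 22.9% lower. Of 55 Hist genes, 8 rose, 13 fell and 34 were not called, and of 12 variant genes 6 rose, 3 fell and 3 were not called. The median change was -0.03 over the Hist genes, 0.32 over the variant genes and 0.01 over all genes. The balance of the Hist genes turned with the correction for length. After centring, 45.1% of all genes were called higher and 20.6% lower, while 14 Hist genes were called higher and 9 lower, and 7 variant genes were called higher and 2 lower. Without ESC replicate 3, 42.3% of all genes were called higher and 30.3% lower, with 13 Hist genes higher and 15 lower, and 8 variant genes higher and 3 lower. Groups did not overlap in 45.5% of all detected genes toward higher and 27.4% toward lower levels in NPCs. For Hist genes that was 9 higher and 16 lower of 55, and for variant genes 8 higher and 3 lower of 12.

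Linker histones bind the DNA between nucleosomes. H1f0, which encodes the linker variant H1.0 known to accumulate in differentiating cells, was at 13.7, 13.9 and 18.6 RPKM in ESCs and at 150, 141 and 140 RPKM in NPCs (chr15:79028450-79030504). Every NPC sample lay far above every ESC sample. Mean levels were 15.4 ± 2.74 and 144 ± 5.21 RPKM (SD, n = 3), a ratio of 9.35, and the log2 change was 3.16 (SE 0.14, limma adjusted p = 3.01e-06). Without ESC replicate 3 the change was 3.29.

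H1fx, which encodes the linker variant H1X, rose as well. It was at 5.53, 7.22 and 12.7 RPKM in ESCs and at 22.6, 34.7 and 35.7 RPKM in NPCs. All NPC samples were higher, with NPC replicate 1 the lowest of them. The mean ratio was 3.66 and the log2 change 1.80 (SE 0.31, limma adjusted p = 0.00213). Without ESC replicate 3 it was 2.1.

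The germ line linker genes were near 0. H1foo, the oocyte linker gene, was listed at 0 in ESCs and had 1 read in each NPC sample. The fit over all detected genes called it (limma adjusted p = 0.00243), but 3 reads give no measure of its level. H1fnt, the spermatid linker gene, had 13 reads over all samples, its groups overlapped and it was not called (limma adjusted p = 0.639).

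H2A.Z, a variant found near transcription starts, is encoded by H2afz and H2afv. H2afz was at 276, 293 and 484 RPKM in ESCs and at 91.4, 108 and 106 RPKM in NPCs (chr3:137864487-137866922). All ESC samples lay above all NPC samples, with ESC replicate 3 the highest. The mean was 3.45 times as high in ESCs and the gene fell by 1.73 on the log2 scale (SE 0.24, limma adjusted p = 8.08e-04), and by 1.48 without ESC replicate 3.

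H2afv was at 4.23, 4.64 and 7.63 RPKM in ESCs and at 9.12, 8.33 and 8.78 RPKM in NPCs. No ESC sample reached the NPC samples. Its log2 change was 0.62 (SE 0.19, limma adjusted p = 0.0268), and 0.84 without ESC replicate 3. The call was lost when ESC replicate 1 or 2 or any NPC replicate was left out, with limma adjusted p from 0.0634 to 0.0882. The coding sequences of H2afz and H2afv differ at 80 bases. Of the 100-base words of H2afz, 26.2% occur elsewhere in the genome, while H2afv has no repeated word.

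The H2A.Z pair thus shifted in balance. H2afz made up 98.5%, 98.4% and 98.4% of the summed RPKM of the pair in ESCs and 90.9%, 92.8% and 92.4% in NPCs. Per exonic kilobase the share was 89.5%, 89.1% and 89.2% in ESCs and 56.6%, 62.7% and 61.1% in NPCs. That scale leaves the long introns of H2afv out of its length and takes all its reads as exonic. All ESC samples lay above all NPC samples on both scales, and the exact two-sided permutation test gave p = 0.1, the smallest that 3 against 3 samples allow. The difference of the deposited shares was -6.43 points, and -6.44 points without ESC replicate 3.

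Other H2A variants moved in different directions. H2afx encodes H2A.X, which is phosphorylated at DNA breaks. It was at 123, 137 and 184 RPKM in ESCs and at 84.9, 91.1 and 87.8 RPKM in NPCs. All ESC samples were higher and it fell by 0.72 on the log2 scale (SE 0.18, limma adjusted p = 0.0104), and by 0.55 without ESC replicate 3. After centring by length the change was -0.07 and was not called (limma adjusted p = 0.572).

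H2afj, an H2A variant gene, was at 8.71, 7.97 and 14.4 RPKM in ESCs and at 2.27, 3.37 and 3.69 RPKM in NPCs. All ESC samples were higher, by 3.33 times in the mean, and the gene fell by 1.44 on the log2 scale (SE 0.24, limma adjusted p = 0.00186), and by 1.20 without ESC replicate 3. Its neighbour Hist4h4 (both within chr6:136801553-136810074) had 10, 12 and 15 reads in ESCs and 3, 1 and 1 in NPCs and fell in the fit over all detected genes (limma adjusted p = 0.00285), and without ESC replicate 3 (limma adjusted p = 0.00141).

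MacroH2A, a variant with a large extra domain that is common on silent chromatin, is encoded by H2afy and H2afy2. H2afy2 was at 0.692, 0.656 and 0.641 RPKM in ESCs and at 3.75, 3.42 and 3.43 RPKM in NPCs. The groups lay far apart, with ESC replicate 3 close to the others, a mean ratio of 5.33 and a log2 change of 1.45 (SE 0.06, limma adjusted p = 1.82e-06), or 1.44 without that library. Exons of Aifm2 overlap it on the opposite strand, and Aifm2 itself went from 0.346 to 1.87 RPKM in the mean. The paper names a stranded library kit and the sample labels another kit, whether reads were assigned by strand is not stated, and the part of Aifm2 reads in the value of H2afy2 was not tested.

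H2afy was at 3.00, 3.14 and 4.14 RPKM in ESCs and at 4.35, 4.3 and 4.43 RPKM in NPCs. The groups did not overlap, but the log2 difference of 0.28 was not called (SE 0.11, limma adjusted p = 0.0588). Without ESC replicate 3 it was 0.40 and was called (limma adjusted p = 4.19e-05), as it was when samples were rescaled to a sum of 1000000 (limma adjusted p = 5.75e-04) or by the median of ratios (limma adjusted p = 0.00801). H2afb1, H2afb2 and H2afb3, short H2A variant genes of the testis, were listed at 0 in every sample.

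H3.3, the H3 variant laid down outside S phase, is encoded by H3f3a and H3f3b, which are known to encode the same protein and whose coding sequences differ at 95 bases. Of their 100-base words, 18.4% in H3f3a and 8.33% in H3f3b occur elsewhere in the genome. H3f3b was at 78.9, 76.7 and 92.3 RPKM in ESCs and at 141, 132 and 130 RPKM in NPCs. All NPC samples were higher, the mean ratio was 1.63, and the log2 change was 0.70 (SE 0.13, limma adjusted p = 0.00296), and 0.78 without ESC replicate 3. H3f3a was at 6.35, 6.98 and 9.29 RPKM in ESCs and at 10.3, 9.48 and 9.57 RPKM in NPCs. ESC replicate 3 came close to the NPC samples without reaching them. The log2 difference of 0.35 was not called (SE 0.14, limma adjusted p = 0.0611), while without ESC replicate 3 it was 0.49 (limma adjusted p = 1.08e-04) and after centring by length 0.55 (limma adjusted p = 0.00541), both called, as under either rescaling of the samples (limma adjusted p = 3.63e-04 and 0.0101).

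H3f3a gave a smaller share of H3.3 RNA in NPCs. Per exonic kilobase its share of the pair was 12.9%, 14.4% and 15.6% in ESCs and 11.9%, 11.6% and 11.9% in NPCs. On the deposited scale it was 7.45%, 8.34% and 9.15% against 6.81%, 6.68% and 6.83%. The groups did not overlap on either scale, and the exact two-sided permutation test gave p = 0.1, its smallest value. The difference of the deposited shares was -1.54 points, and -1.12 points without ESC replicate 3.

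The 10 variant genes with a mean of at least 1 RPKM in a cell type were ranked in reads per exonic kilobase in every 1000000 reads. In ESCs they ran from H2afz at 481 ± 158 over H3f3b at 168 ± 17.1, H2afx at 148 ± 32.1 and H2afv at 58.0 ± 19.6 down to H1fx at 8.47 ± 3.74 (SD, n = 3). In NPCs H3f3b was highest at 273 ± 11, followed by H1f0 at 160 ± 5.80 and H2afz at 139 ± 12.2, then H2afv at 92.2 ± 4.14 and H2afx at 87.9 ± 3.10, with H2afj last at 3.11 ± 0.746. H3f3b and H2afx as well as H2afj and H1fx in ESCs, and H2afv and H2afx in NPCs, had overlapping samples, so their order within those pairs is not resolved. The value of H1f0 uses its annotated 2055 bases. At 2287 bases, the length that gives whole reads, it was at 150, 141 and 140 in NPCs, which overlaps H2afz at 125, 148 and 145, so the order of this pair is not resolved either.

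After centring by length, calls of 7 of these genes stood, with log2 changes of 3.58 for H1f0, 2.51 for H1fx, -1.28 for H2afz, 1.20 for H2afv, -1.06 for H2afj, 1.69 for H2afy2 and 1.05 for H3f3b. H2afy at 0.25 was again not called (limma adjusted p = 0.241).

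**Figure D2:**
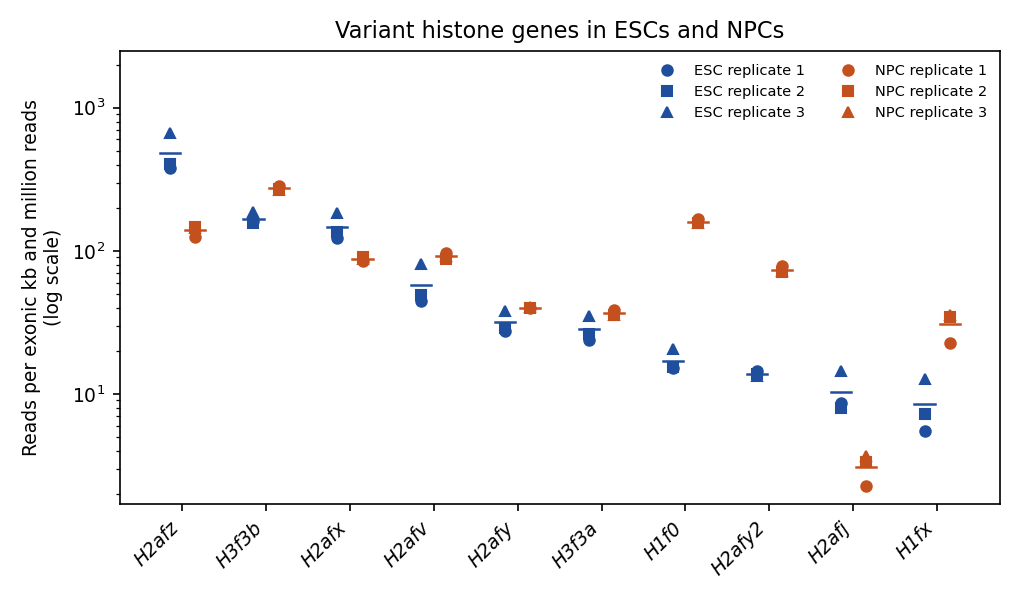
Levels of the 10 variant genes with a mean of at least 1 RPKM in a cell type, shown for each of the 6 RNAseq samples. Values are reads per exonic kilobase and 1000000 reads on a log axis, with points for samples and bars for group means. H2afz leads in ESCs at 481 and H3f3b in NPCs at 273. H1f0 is shown at its annotated length.

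Among the Hist genes, linker genes moved in opposite directions. Hist1h1c, which encodes the linker H1.2, was at 1.6, 2.36 and 3.11 RPKM in ESCs and at 6.59, 6.49 and 5.68 RPKM in NPCs, from 85, 124 and 149 reads against 310, 276 and 286. All NPC samples were higher. The mean ratio was 2.66 and the log2 change 1.14 (SE 0.17, limma adjusted p = 0.00114), and 1.29 without ESC replicate 3.

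Hist1h1a, which encodes the linker H1.1, was at 1.51, 1.88 and 2.85 RPKM in ESCs and at 0.224, 0.297 and 0.377 RPKM in NPCs. It had 38, 47 and 65 reads against 5, 6 and 9, with no overlap. It fell by 1.22 on the log2 scale (SE 0.15, limma adjusted p = 4.77e-04), and by 1.05 without ESC replicate 3. Hist1h1b, Hist1h1d and Hist1h1e had 100, 172 and 92 reads over all samples, overlapped between cell types and were not called. Hist1h1b and Hist1h1e were called higher after centring by length (limma adjusted p = 0.0153 and 0.0224), and Hist1h1d without ESC replicate 3 (limma adjusted p = 6.41e-04). Exons of Hist1h2be overlap Hist1h1e on the same strand. The part of Hist1h2be reads in the value of Hist1h1e was not tested. Hist1h1t, the testis linker gene, had 2 reads.

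The Hist3 pair on chromosome 11 rose together. Hist3h2ba, an H2B gene (chr11:58948920-58949533), was at 0.0958, 0.0967 and 0.318 RPKM in ESCs and at 11, 9.04 and 8.38 RPKM in NPCs. That is 2, 2 and 6 reads in ESCs against 204, 151 and 166 reads in NPCs. The mean ratio was 55.7, and 98.5 without ESC replicate 3, since the ESC mean rests on 10 reads. The log2 change was 3.16 (SE 0.13, limma adjusted p = 1.55e-06), and 3.25 without ESC replicate 3.

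Hist3h2a, the H2A gene beside it (chr11:58954685-58956830), was at 0.137, 0.0276 and 0.151 RPKM in ESCs and at 2.24, 1.57 and 1.30 RPKM in NPCs, from 10, 2 and 10 reads against 145, 92 and 90. The groups did not overlap, the mean ratio was 16.2 and the log2 change 1.28 (SE 0.13, limma adjusted p = 1.46e-04), and 1.31 without ESC replicate 3. Exons of Trim17 overlap it on the same strand, and Trim17 went from 0.00545 to 0.105 RPKM in the mean. The part of Trim17 reads in its value was not tested.

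Hist2h2be, an H2B gene on chromosome 3, was at 0.247, 0.181 and 0.0992 RPKM in ESCs and at 1.25, 1.19 and 1.12 RPKM in NPCs. ESC replicate 3 was here the lowest sample, and the groups lay apart by 22, 16 and 8 reads against 99, 85 and 95. The mean ratio was 6.77 and the log2 change 0.90 (SE 0.05, limma adjusted p = 1.18e-05), and 0.85 without ESC replicate 3.

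Hist1h2bk, another H2B gene, was at 1.11, 1.06 and 2.19 RPKM in ESCs and at 0.838, 0.618 and 0.587 RPKM in NPCs. ESC and NPC samples did not overlap, though its reads were few, at 18, 17 and 32 against 12, 8 and 9. It fell by 0.52 on the log2 scale (SE 0.17, limma adjusted p = 0.0346), and by 0.32 without ESC replicate 3. After centring by length the difference was -0.13. The call was lost after centring by length, under either rescaling of the samples, over all detected genes and without any of the NPC replicates (limma adjusted p from 0.0586 to 0.162). The gene shares 70.8% of its 100-base words with other places in the genome.

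Hist1h4i, an H4 gene, was at 0.971, 1.10 and 1.57 RPKM in ESCs and at 1.6, 1.72 and 1.66 RPKM in NPCs. ESC replicate 3 lay just under the NPC samples. The log2 difference of 0.27 was not called (SE 0.10, limma adjusted p = 0.0507). Without ESC replicate 3 it was 0.39 and after centring by length 0.72, both called (limma adjusted p = 6.96e-05 and 3.00e-05), as it was under either rescaling of the samples and per exonic kilobase (limma adjusted p from 0.0011 to 0.0497).

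The other Hist genes that reached 1 RPKM were tested over all detected genes only. Hist1h2bj, an H2B gene, was at 1.33, 0.706 and 1.62 RPKM in ESCs and at 0.144, 0.0794 and 0 RPKM in NPCs, fell by 1.03 on the log2 scale (SE 0.17, limma adjusted p = 0.00332) and by 0.90 without ESC replicate 3, and rested on 58 reads. Hist1h3c, an H3 gene, was at 0.794, 1.04 and 1.55 RPKM in ESCs and at 0.369, 0.467 and 0.295 RPKM in NPCs, and fell by 0.61 (SE 0.14, limma adjusted p = 0.0118), or by 0.47 without ESC replicate 3. In both genes every ESC sample was above every NPC sample.

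Hist1h4k, an H4 gene, was at 0.283, 0.477 and 0.731 RPKM in ESCs and at 0.960, 1.06 and 1.29 RPKM in NPCs, with a log2 change of 0.50 (SE 0.13, limma adjusted p = 0.0179) on 46 reads, and of 0.61 without ESC replicate 3. It shares 64.3% of its 100-base words with other places in the genome. Its groups did not overlap, and its call was lost without ESC replicate 2, NPC replicate 2 or NPC replicate 3 (limma adjusted p from 0.0538 to 0.0626). Hist1h2bm, an H2B gene, was at 0.786, 1.02 and 2.3 RPKM in ESCs and at 0.254, 0.561 and 0.533 RPKM in NPCs. All ESC samples were higher, but the log2 difference of -0.66 was not called (SE 0.25, limma adjusted p = 0.0659), and it was called without ESC replicate 3 (-0.40, limma adjusted p = 0.0396) and without ESC replicate 1 (-0.84, limma adjusted p = 0.0431), with a pseudocount of 0.1 (limma adjusted p = 0.0432) and with a replicate block (limma adjusted p = 0.0451).

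Centring by length left the calls of Hist1h1c (1.65), Hist1h1a (-0.88), Hist3h2ba (3.57), Hist3h2a (1.44) and Hist2h2be (1.07) in place. The same held over all detected genes for Hist1h2bj (-0.80), Hist1h3c (-0.30) and Hist1h4k (0.84), while Hist1h2bm (-0.31) was again not called (limma adjusted p = 0.0837).

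**Figure D3:**
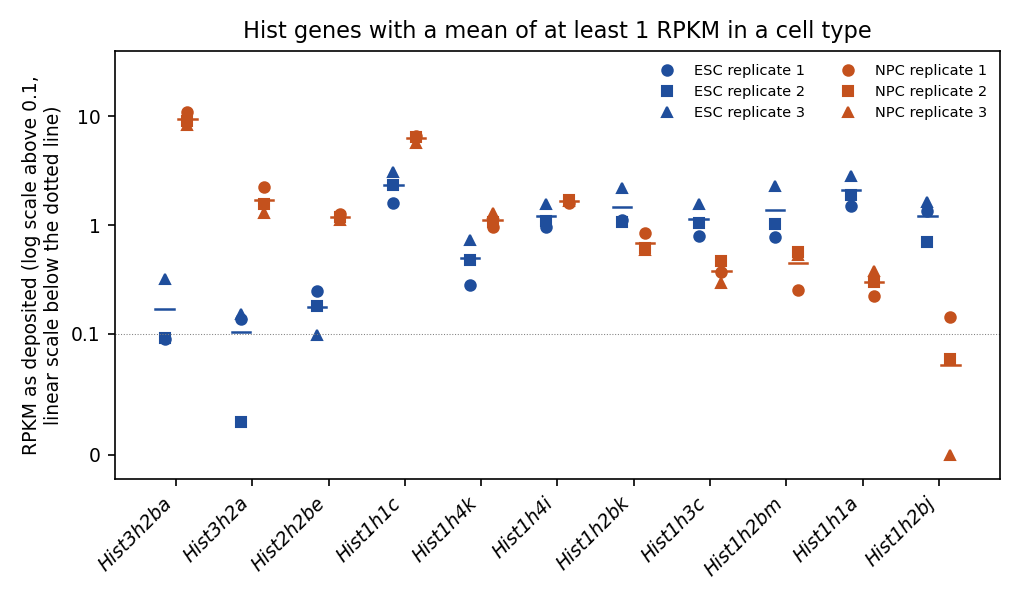
Deposited RPKM of the 11 Hist genes with a mean of at least 1 RPKM in a cell type, in each of the 6 RNAseq samples, on an axis that is logarithmic above 0.1 and linear below, with bars for group means. Hist3h2ba rises to 9.49 RPKM in NPCs and Hist1h1a falls to 0.299 RPKM.

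Below 1 RPKM, some calls rested on few reads, and genes of that range are named here after their values were seen. Of the 21 Hist genes called over all detected genes, 11 had at least 50 reads, of which 5 rose and 6 fell. Hist1h2bc, which has the second highest read total of the Hist genes, had 307, 227 and 290 reads in ESCs and 99, 81 and 85 in NPCs. It fell by 0.55 on the log2 scale (SE 0.07, limma adjusted p = 0.00137), and by 0.50 without ESC replicate 3, but after centring by length the difference of -0.28 was not called (limma adjusted p = 0.0546). Its deposited level is low, at 0.963 RPKM in ESCs, since its annotated gene spans 8710 bases with 1156 exonic bases, and per exonic kilobase its mean was 7.26 in ESCs and 2.56 in NPCs. At the other end, Hist1h4n had 1 read in each ESC sample and 0 in each NPC sample and was still called (limma adjusted p = 6.89e-06), so a call on this scale does not vouch for depth.

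Levels were also summed by histone class. Hist genes of the H2A class summed to 0.713, 0.803 and 1.74 RPKM in ESCs and 3.23, 2.49 and 2.61 RPKM in NPCs. Those of the H2B class summed to 6.23, 5.52 and 11 RPKM in ESCs and 15.8, 13.2 and 12.3 RPKM in NPCs. Both sums were higher in every NPC sample on the deposited scale. Without Hist3h2a the H2A sums overlapped, at 0.576, 0.776 and 1.59 RPKM in ESCs and 0.988, 0.912 and 1.31 RPKM in NPCs. The H2B sums overlapped per exonic kilobase, at 13, 10.9 and 18.3 in ESCs and 18.7, 15.8 and 14.5 in NPCs. Without Hist3h2ba the deposited H2B sums were 6.13, 5.43 and 10.6 RPKM in ESCs and 4.77, 4.19 and 3.88 RPKM in NPCs, so each of the higher sums rests on 1 gene. Hist H3 genes summed to 2.63, 3.62 and 5.72 RPKM against 1.79, 2.79 and 2.96 RPKM, and Hist H4 genes to 4.61, 4.33 and 7.49 RPKM against 4.36, 4.11 and 4.63 RPKM. Cell types overlapped in both of these. The linker variants went from 19.3, 21.2 and 31.3 RPKM in ESCs to 173, 176 and 176 RPKM in NPCs, while the Hist linker genes went from 3.96, 5.07 and 7.77 RPKM to 7.83, 7.81 and 7.20 RPKM, with ESC replicate 3 inside the NPC range.

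All Hist genes together summed to 18.1, 19.3 and 33.7 RPKM in ESCs and 33.0, 30.4 and 29.7 RPKM in NPCs. ESC replicate 3 was above every NPC sample, while the other ESC samples were below. The log2 ratio of the means was 0.39. It was 0.73 without ESC replicate 3, 1.16 after centring by length, 0.86 with samples rescaled to a sum of 1000000 and 0.15 per exonic kilobase, and it turned to -0.13 without Hist3h2ba. Without that gene the samples were at 18.0, 19.2 and 33.4 RPKM in ESCs and 22, 21.4 and 21.3 RPKM in NPCs, where ESC replicates 1 and 2 were again below every NPC sample and ESC replicate 3 above. Variant genes summed to 520, 551 and 827 RPKM in ESCs and 519, 536 and 531 RPKM in NPCs. That log2 ratio was -0.26, it was -0.02 without ESC replicate 3, 0.25 after centring by length and 0.60 without H2afz, so the variant sum has no direction that holds on every scale. Hist genes made up 3.37%, 3.39% and 3.91% of summed histone RPKM in ESCs and 5.98%, 5.37% and 5.30% in NPCs, a difference of 1.99 points that was 0.38 points without Hist3h2ba and 0.44 points per exonic kilobase.

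The stem-loop that ends replication-dependent messages was searched in the genome, as a feature the symbols do not use. The search took a fixed pattern of 16 bases on the sense strand of the 200 bases after the stop codon. The pattern is GG, 3 pyrimidines, TT, 1 pyrimidine, T, any base, A, 3 purines and CC, which allows a stem of 6 base pairs with a loop of 4 bases. It was found in 65 of 67 Hist genes (97.0%), in 1 of 15 variant genes (H2afx) and in 70 of 21673 protein-coding genes in all (0.323%). The Hist genes without a match were Hist1h2an and Hist2h2be, which says only that this pattern is not in the window. One core of 16 bases was shared by 41 members, another by 9 members and a further one by 8 H4 genes. The sequences are shown for the Hist genes above 1 RPKM and for H2afx, since nearly all Hist genes and hardly any variant genes have the pattern. They are read from GRCm38, 5′ to 3′ on the gene's strand, with the stem-loop in capitals and 5 bases on either side. Positions are those of the capitals.
Hist3h2ba, chr11:58949349-58949364, plus strand: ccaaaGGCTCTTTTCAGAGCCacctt
Hist3h2a, chr11:58955172-58955187, plus strand: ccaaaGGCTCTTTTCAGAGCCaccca
Hist1h1c, chr13:23739512-23739527, plus strand: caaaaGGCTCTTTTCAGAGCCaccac
Hist1h1a, chr13:23764392-23764407, plus strand: ccaacGGCTCTTTTCAGAGCCaccaa
Hist1h2bj, chr13:22043638-22043653, plus strand: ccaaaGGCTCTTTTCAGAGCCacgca
Hist1h2bm, chr13:21722506-21722521, plus strand: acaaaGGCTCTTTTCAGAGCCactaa
Hist1h2bk, chr13:22036300-22036315, plus strand: ccaaaGGCTCTTTTAAGAGCCactaa
Hist1h3c, chr13:23745047-23745062, minus strand: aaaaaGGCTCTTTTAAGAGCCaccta
Hist1h4i, chr13:22040966-22040981, minus strand: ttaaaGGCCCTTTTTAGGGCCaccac
Hist1h4k, chr13:21750150-21750165, minus strand: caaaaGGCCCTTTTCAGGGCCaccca
H2afx, chr9:44335240-44335255, plus strand: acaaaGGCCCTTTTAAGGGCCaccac

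Many Hist genes have an annotated end beyond the stem-loop. In 27 of the 65 the annotation runs more than 100 bases past it, and these had a median of 45 reads over all samples. The 38 that end within 100 bases had a median of 10.5 reads, from 0 to 170. These totals are not scaled by length, and an annotation that runs further adds bases in which reads are counted. The groups also differed in repeated sequence. The median share of 100-base words found elsewhere in the genome was 15.1% in the 27 and 52.3% in the 38. The poly(A) signal AATAAA lay in the last 50 annotated bases of 14 Hist genes (20.9%), 9 variant genes (60%) and 66.0% of protein-coding genes in the tables. Over all detected genes, the signal was in 4 of 8 Hist genes that rose, 2 of 13 that fell and 5 of 34 not called. This split was looked at after the values were seen.

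Near-identical sequence also limits what can be read from single Hist genes. In 24 Hist genes at least 50% of 100-base words occur elsewhere in the genome, and these had a median of 4 reads. The other 43 had a median of 45 reads. Neither total is scaled by length, and the part of gene length in this difference was not tested. Of the 12 Hist genes listed at 0, 8 were in the repeated group, and Hist1h2ao, Hist1h2ap, Hist1h2bq, Hist1h2br and Hist2h2aa2 had no unique word. The paper gives default STAR settings for the alignment. How reads that map to several places were counted is not stated, so a 0 in a repeated gene cannot be told apart from an unassigned message. Hist1h2aa and Hist2h2bb, also at 0, have no repeated word.

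Promoters were searched for motifs known from histone genes. RefSeq promoters on GRCm38 matched 73 of 82 members, and the 250 bases before each start were used. The octamer ATTTGCAT, on either strand, was in 13 of 61 Hist promoters (21.3%), in none of 12 variant promoters and in 1.6% of all promoters. By class it was in 38.9% of Hist H2A and 37.5% of Hist H2B promoters. Windows of neighbouring H2A and H2B genes on opposite strands can overlap, as in Hist1h2aa and Hist1h2ba. The same match can thus be counted in both classes. CCAAT, on either strand, was in 82.0% of Hist promoters, 66.7% of variant promoters and 33.8% of all promoters, and TATAAA, on the sense strand, in 37.7%, 0% and 7.59%. The promoters of the Hist3 pair are shown because the pair rose together, 5′ to 3′ on the plus strand, with matches to these motifs in capitals. A match is a description of the letters and not a site.
Hist3h2ba, chr11:58948661-58948910: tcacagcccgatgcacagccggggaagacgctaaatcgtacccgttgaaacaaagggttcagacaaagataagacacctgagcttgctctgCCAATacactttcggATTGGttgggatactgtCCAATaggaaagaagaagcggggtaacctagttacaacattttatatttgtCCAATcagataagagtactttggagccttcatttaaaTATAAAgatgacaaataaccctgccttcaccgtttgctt
Hist3h2a, chr11:58954435-58954684: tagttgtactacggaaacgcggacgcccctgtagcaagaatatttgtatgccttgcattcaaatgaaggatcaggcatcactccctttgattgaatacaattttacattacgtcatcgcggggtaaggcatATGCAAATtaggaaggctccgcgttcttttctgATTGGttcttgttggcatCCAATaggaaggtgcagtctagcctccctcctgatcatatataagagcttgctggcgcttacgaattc

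By position, 54 Hist genes are Hist1 genes on chromosome 13, in a block of 23 at chr13:21715763-22043676 and a block of 31 at chr13:23531050-23934851. Another 10 lie within chr3:96219865-96270132. The question was whether these blocks lie in NADs, of which the authors' lists hold 1769 in ESCs and 1447 in NPCs, pooled over replicates. In ESCs, 0 of 82 members overlapped a NAD by any base, while 27.1% of 21402 genes did. Most members lie in these blocks, so the 82 are not separate positions. In NPCs, 18 of 67 Hist genes did (26.9%), beside 21.6% of all genes, and H2afb3 was the only variant gene among 15 that did.

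All 18 lie in 1 NAD of NPCs at chr13:21300318-21999876, which covers most of the block of 23. In ESCs, a NAD at chr13:21900188-21999876 shares its right end but falls in a gap between members. The NPC domain has a low score, 0.0275 where the median of the NPC list is 0.0413. The scores are the authors' own, with 1 value per NAD and no replicates, so this difference between cell types has no test here. Among NADs at or above the median score of their list, only the one over H2afb3 (0.0553) held a member. In the fit over all detected genes, where 39.5% of genes were called higher and 22.9% lower, Hist1h4k rose, Hist1h2bl and Hist1h4n fell, and the rest of the 18 were not called or were listed at 0.

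**Figure D4:**
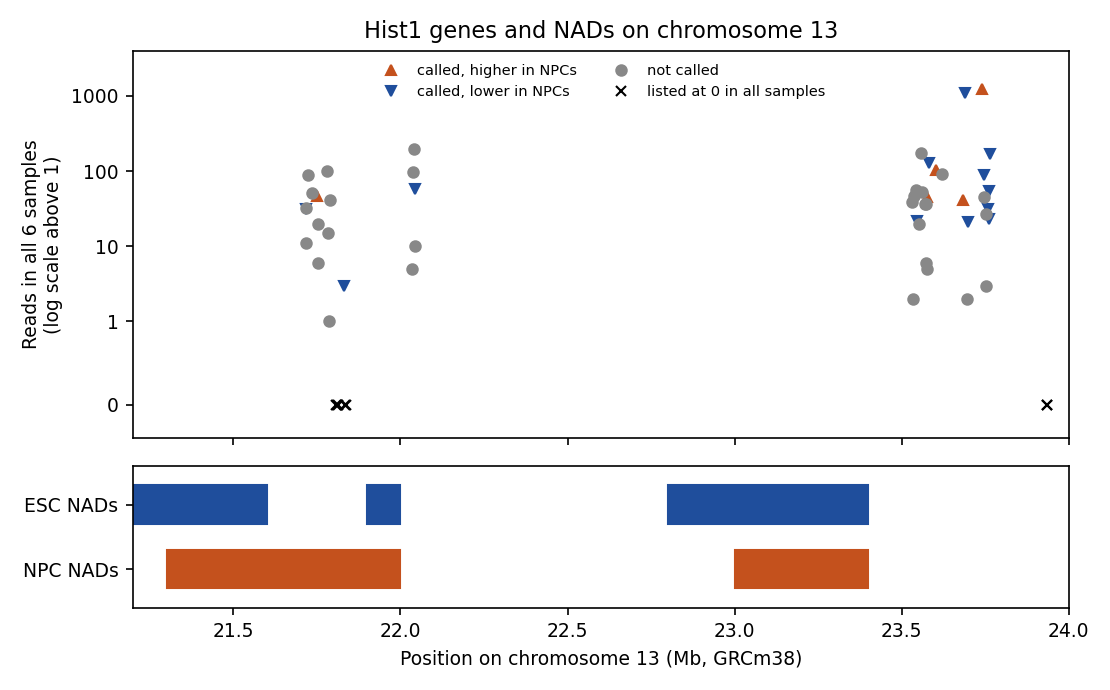
Hist1 genes between 21.2 and 24.0 Mb of chromosome 13, by their reads over all 6 RNAseq samples (log axis above 1) and by call in the fit over all detected genes, above the NADs of ESCs and NPCs. The NPC NAD that ends at 21999876 covers 18 Hist genes and the ESC NADs cover none.

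Genes that process, degrade and use histone messages were read from lists, as were genes of DNA replication and mitosis. Over all these lists together 13 of 108 tested genes rose and 55 fell, and without ESC replicate 3 there were 19 and 76. Genes of DNA replication and S phase made up 25 of the 55 falls. Among all genes that passed the filter, 36.9% were called higher and 33.3% lower, without ESC replicate 3 43.9% and 44%, and after centring by length 45.2% and 29.2%. Of 23 tested genes in the list of histone pre-mRNA processing, out of 27 listed, 3 rose, 11 fell and 9 were not called. Their median change was -0.23, where that of all genes was 0.03. After centring 4 rose and 6 fell. The list also holds Cpsf1, Cpsf4, Fip1l1 and Wdr33, whose part in the processing of histone messages was not tested. Without ESC replicate 3, Casp8ap2, Hinfp, Cpsf2, Cstf2, Wdr33 and Snrpe were also called lower and Npat higher. Slbp, which binds the stem-loop, was at 6.87, 6.76 and 8.00 RPKM in ESCs and at 4.29, 4.34 and 4.21 RPKM in NPCs. No samples overlapped, and it fell by 0.63 (SE 0.09, limma adjusted p = 7.72e-04). Lsm11, a part of the U7 particle that directs the cut after the stem-loop, rose from a mean of 1.00 to 2.31 RPKM, and the scaffold Sympk from 6.13 to 9.38 RPKM. Coil, of the Cajal body, fell from 2.87 to 1.28 RPKM, a call lost with samples rescaled to a sum of 1000000 (limma adjusted p = 0.0565). Snrpg, an Sm protein gene, fell from 18.5 to 8.37 RPKM, a call lost without any of the NPC replicates, over all detected genes and under either rescaling (limma adjusted p from 0.0520 to 0.0937). Its log2 change of -0.95 was -0.57 without ESC replicate 3.

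Of 12 tested genes of histone message decay, out of 14 listed, 2 rose, 6 fell and 4 were not called, with a median of -0.35, and after centring 3 rose and 6 fell. Also called lower without ESC replicate 3 were Tut1, Dcp2 and Dhx36, while Xrn1 was called higher. The terminal uridylyltransferases Zcchc11 and Zcchc6 rose, from means of 0.557 to 3.39 RPKM and 0.815 to 1.54 RPKM, the latter not without each NPC replicate (limma adjusted p from 0.0674 to 0.0872). The log2 change of Zcchc6 was 0.51, and 0.31 without ESC replicate 3. Zcchc11 passed the filter through the NPC samples alone. Lsm4, of the ring that binds uridylated ends, fell from 34.4 to 10.4 RPKM, and Pnldc1, an exonuclease gene, from 1.34 to 0.127 RPKM. Pnldc1 passed through the ESC samples alone, and its part in the decay of histone messages was not tested. Of 29 tested histone chaperone and deposition genes, out of 31 listed, 6 rose, 8 fell and 15 were not called, with a median of -0.11, and after centring 8 rose and 8 fell. Without ESC replicate 3, Rbbp4, Ipo4, Cabin1, Znhit1, Supt16, Ssrp1 and Nap1l1 were also called lower and Rbbp7 higher. Ubn1, a part of the HIRA complex that deposits H3.3, rose from 1.27 to 3.79 RPKM. Hjurp, the CENP-A chaperone, rose from 12.2 to 23.1 RPKM, a call lost without any of the NPC replicates (limma adjusted p from 0.0628 to 0.0712). Its log2 change of 0.94 was 0.60 without ESC replicate 3. Hat1, which acetylates new H4, fell from 8.03 to 1.79 RPKM, and the chaperone Set from 84.7 to 30.5 RPKM.

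Genes of DNA replication and S phase were lower in NPCs: 25 of 31 tested fell, out of 34 listed, 1 rose and 5 were not called, with a median of -0.64. After centring by length 24 fell and 3 rose. Uhrf1, which guides maintenance methylation, fell from 37.8 to 13 RPKM and Mcm5, of the replicative helicase, from 34.8 to 13 RPKM. Rrm1, a subunit of ribonucleotide reductase, rose from 9.53 to 11.9 RPKM, a call lost after centring (limma adjusted p = 0.350), with a replicate block and without any of the NPC replicates (limma adjusted p from 0.0658 to 0.0719). Of 14 mitosis genes, 1 rose, 6 fell and 7 were not called, and after centring 4 rose and 5 fell. When ESC replicate 3 was left out, Top2a, Plk1, Bub1b and Kif11 were also called lower and Cenpf higher. Ccnb1, a mitotic cyclin, fell from 40.8 to 16.9 RPKM and Birc5 from 32.0 to 13 RPKM, while Mki67 rose from 11.5 to 25.4 RPKM with a call lost without any of the NPC replicates (limma adjusted p from 0.0508 to 0.0595). Its log2 change of 1.18 was 0.77 without ESC replicate 3. The part of this shift in the levels of Hist genes was not tested. A list of 34 RNAs that lack poly(A) tails, meant to show how much such RNA the libraries hold, had 0 genes in the tables.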

How the data were processed

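Per the authors, rRNA reads were removed and the rest aligned to mm10 with STAR, and the deposited RNAseq tables hold RPKM. The deposited NAD tables hold a score per NAD, from the authors' DamID pipeline on both replicates. Lines with the same symbol were summed. Genes with at least 1 RPKM in at least 3 of 6 samples, and separately all genes above 0 in any sample, were tested with limma 3.58.1 (R 4.3.3, eBayes with trend) on log2(RPKM + 1), two-sided, with Benjamini-Hochberg adjustment over all genes tested. Shares were tested with an exact permutation test (scipy 1.17.1). Reads were recovered from the steps of low values. H1f0 needed 2287 bases where the annotation gives 2055. Depth of 27262786 to 34051992 reads sets counting error. Positions are from GENCODE M21 on GRCm38. Named genes were all variant genes, Hist genes with a mean of at least 1 RPKM in a cell type, the 2 called genes that rose most and the 2 that fell most in each list, and Slbp. Markers and other Hist genes in the text, such as Hist4h4, Hist1h1b, Hist1h2bc and Hist1h4n, lie outside this rule. They are not among the 42 named genes tested. Members and lists were chosen with earlier results of these data known. Centring in 20 bins of exonic length, exonic-length RPKM and voom on recovered reads were chosen after seeing the data.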

Additional observations from a re-analysis of the deposited data

How the results depend on the processing

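Of 42 named genes tested, 27 kept their direction and their side of the threshold under every alternative run for them. Over all their alternatives 641 values did so, 37 lost a call, 16 gained one, and H1fnt, never called, ran from -0.0088 (without NPC replicate 3) to 0.036 without 1 replicate. Leaving out one replicate gave log2 ratios of 0.23 to 0.73 for the summed Hist genes and -0.38 to -0.02 for the summed variants, 1.77 to 2.17 points for the Hist share, -1.97 to -1.12 points for H3f3a and -6.82 to -5.88 points for H2afz. It gave 4627 to 6896 genes called, 5 to 7 Hist and 7 to 10 variant genes with the filter, and 17 to 28 Hist and 7 to 11 variant genes over all detected genes. Centring by length moved the Hist sum to 1.16, the variant sum to 0.25 and the Hist share to 2.71 points. Per exonic kilobase the Hist share was 0.44 points. Rescaling to a sum of 1000000 turned the variant sum to 0.20. Leaving out the highest member turned the Hist sum to -0.13 and the variant sum to 0.60, and moved the Hist share to 0.38 points. With no filter 11455 genes and 21 Hist genes were called, with voom on recovered reads 9789 and 11, and with a 2-fold change 2256 genes and 5 variants. NADs at or above the median score held 1 member in place of 19. H1f0 gave no whole reads at its annotated length and was not tested per exonic kilobase or with voom. Except for fewer genes, members or samples in these settings, the cause was not tested. Rescaling to 1000000 moved the median of all genes from 0.03 to 0.45 and the share of calls that were higher from 52.6% to 68.9% (Hist genes 66.7% to 83.3%). Size factors by median of ratios gave 0.18 and 62.0%, and centring 0.15 and 60.8%. A block for replicate number called 5225 genes, but ESC and NPC replicates of 1 number did not share deviations (correlations across genes of 0.11, -0.08 and 0.03), so it is no pairing. Shares within a pair cannot change with a scaling per sample, and have no value without their higher member. Depth also limits the Hist genes, of which 21 of 67 reach 50 reads over all samples.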
